A study of Mus musculus with 9 samples.

Results

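The collagen genes are the protein-coding genes whose symbol in the mouse gene annotation GENCODE M21 has the form of a collagen chain, "Col", a type number, "a" and a chain number. The rule took 44 of 55450 annotated genes, of which 21951 code for proteins, and it left out Col4a3bp, which is named after a collagen but encodes no chain. After the filter on low counts, 43 of the 44 could be tested. Col10a1, a cartilage chain, was the gene that did not pass, with 1 to 12 counts per library.

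RNA of manually dissected mouse nigral tissue was sequenced in 9 libraries, 3 for each of 3 groups, to compare tissue in which a Synuclein-expressing vector was switched on in different cells. The mice were male, and the tissue was taken 5 weeks after bilateral injection of lentivirus into the substantia nigra, which harbours dopaminergic neurons. CTR libraries came from CX3CR1-CreERT2 mice given a vector for GFP, described in the methods as a destabilized form. CX3 libraries came from the same Cre line given the Synuclein-expressing vector, and DAT libraries came from DAT-Cre mice given that vector. Both transgenes lay inverted until Cre turned them, and the Ef1a promoter of the Synuclein vector is active in most cells. In CX3CR1-CreERT2 mice, Cre is made in microglia and other cells that express Cx3cr1 and acts after tamoxifen, while in DAT-Cre mice it is made in cells that express the dopamine transporter, and tamoxifen is described only for the first line. CX3 and CTR therefore differ in the vector, whereas DAT and CTR differ in the Cre line, tamoxifen and the vector together, and no DAT-Cre mice with the GFP vector were analysed here. The age at injection is given as 8 weeks in the study's results and as 9 weeks at purchase in its methods. No source used here says whether the libraries of a group came from separate animals, so p-values measure the spread between libraries, which may be technical.

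Counts on genes ranged from 21592817 in DAT B to 39475428 in DAT A. The smallest signal taken as countable, 3 counts, equalled 0.0779 to 0.151 CPM (counts scaled to a common, TMM-normalized library size), a floor that covers counting error only. Over the collagen genes, the squared difference between libraries of 1 group was 1.18 to 2.19 times that of random sampling in CTR, 1.38 to 2.25 times in CX3 and 2 to 3.63 times in DAT. DAT B stood apart over all genes, at 12.1 and 16.5 times sampling against its group, while DAT A and DAT C differed by 2.25 times. It was the lowest DAT library for 25 of the 43 tested collagen genes, a count that was not made over all genes and so cannot be called particular to collagen. Dopaminergic markers were present in every library, with Th, the rate-limiting enzyme of dopamine synthesis, at 68.0 to 103.5 CPM. Markers of structures beside the nigra differed between groups as well and are given with the cell type lists.

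Collagens are secreted proteins in which 3 chains wind into a triple helix, and each type is made from its own set of chains. Fibrillar types form the cables of connective tissue, type IV forms the sheet of basement membranes, type VI forms beaded filaments, and fibril-associated and transmembrane types decorate fibrils or cell surfaces. In brain, fibrillar collagen is known mainly from the meninges and from fibroblasts around vessels, type IV from the vascular basement membrane, and several minor types are also made by neurons and glia. Scar tissue after injury of the central nervous system can hold fibrillar and type IV collagen.

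Summed over the 44 genes, collagen RNA stood at 498.8, 505.1 and 498.0 CPM in the CTR libraries. The CX3 libraries had 466.6, 490.6 and 491.2 CPM, and the DAT libraries 783.4, 734.0 and 791.5 CPM. All DAT libraries thus lay above all others, and the CX3 libraries lay just below the CTR libraries. The sum was 0.0497 to 0.0733% of the counts on genes.

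Between DAT and CTR, 25 of 43 collagen genes were called higher and 10 lower by edgeR's quasi-likelihood test (Benjamini-Hochberg adjusted p under 0.05 over all 20892 genes tested), and 8 were not called. These are 58.1% and 23.3% of the members, beside 32.0% of all genes called higher and 27.9% called lower. With a change of at least 2-fold as well, 12 members (27.9%) were higher and 3 (6.98%) lower, beside 3.88% and 12% of all genes. The median log2 fold change was 0.45 over the collagen genes and 0.00 over all genes.

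Between CX3 and CTR, 10 collagen genes (23.3%) were called higher, 7 (16.3%) lower and 26 were not called, beside 14.0% and 16.5% of all genes. At 2-fold or more, 2 were higher (4.65%) and 1 lower (2.33%), beside 1.33% and 2.26%. The median was -0.01 over the members and 0.00 over all genes. The count called higher was 6 without CTR A, CTR C or CX3 C, 5 to 6 when a single strand was counted and 10 with all reads.

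Between CX3 and DAT, which carried the same vector, 10 collagen genes (23.3%) were higher in CX3 and 26 (60.5%) lower, beside 27.6% and 31.3% of all genes. At 2-fold or more, 3 members (6.98%) were higher in CX3 and 9 (20.9%) lower, beside 11.0% and 4.37%. The comparisons with CTR share their control libraries, so that their values are set side by side and not correlated.

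**Figure D1:**
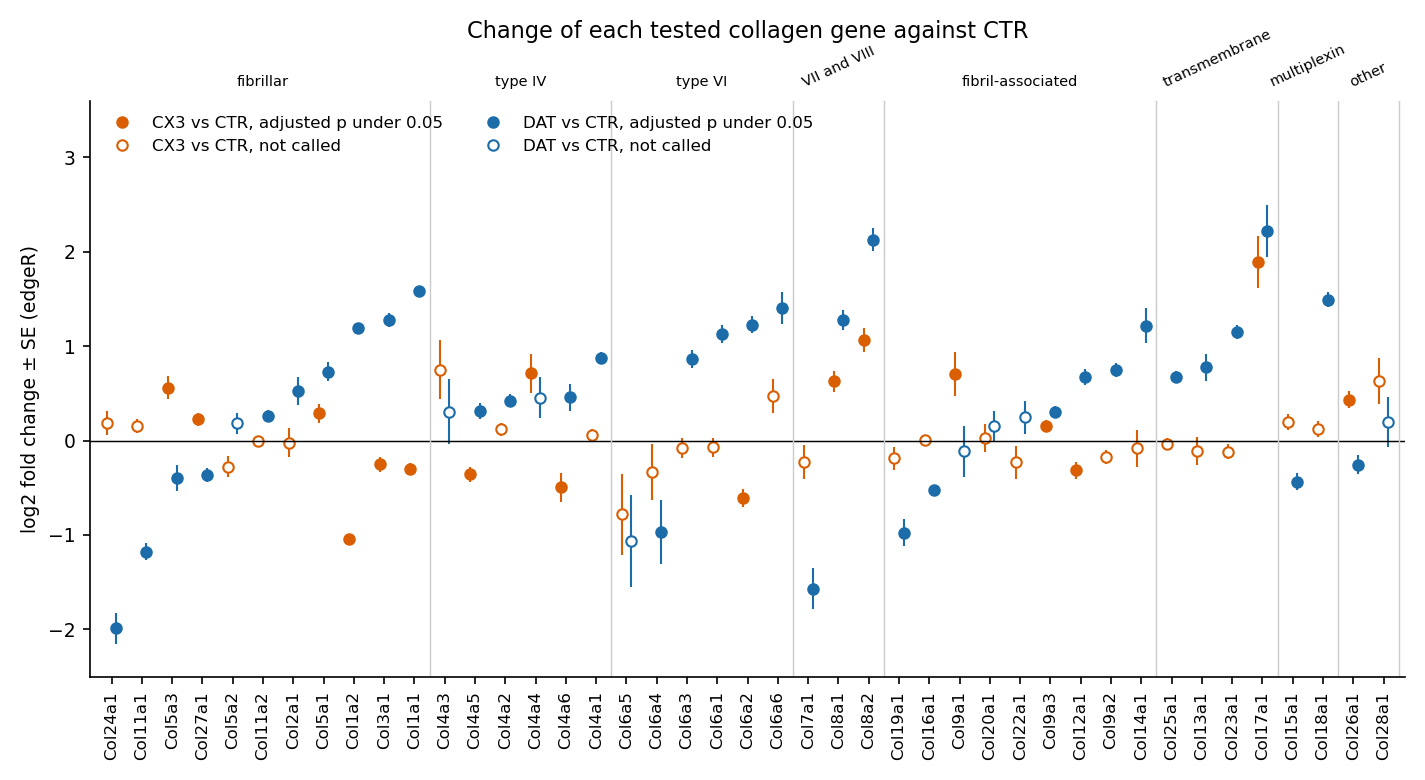
log2 fold change ± SE of each of the 43 tested collagen genes in CX3 vs CTR (orange) and DAT vs CTR (blue), grouped by structural type, with filled points for an adjusted p under 0.05. Blue points lie above 0 for most types, from -1.99 for Col24a1 to 2.22 for Col17a1, while orange points span a narrower range, from -1.05 for Col1a2 to 1.89 for Col17a1.

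The stretch before the transcription start can be read for 35 members in RefSeq on GRCm38.p6. Shown are 6 of them that changed by at least 2-fold between DAT and CTR, in either direction. Col3a1, Col8a1 and Col23a1 were higher in DAT, 3 of the 10 such members with a window, and were not drawn by a rule. Col7a1, Col11a1 and Col24a1 were the 3 members lower by that measure. Each run holds the 250 bases before the RefSeq start on the gene's own strand, with 3 motifs in capitals on either strand. These are the CCAAT box, spelled by its name, the GC box with the letters GGGCGG and the TATA box with the letters TATAAA. The windows are chr1:45311288-45311537 (+) for Col3a1, chr16:57754738-57754987 (−) for Col8a1, chr11:51289670-51289919 (+) for Col23a1, chr9:108953336-108953585 (+) for Col7a1, chr3:114030290-114030539 (+) for Col11a1 and chr3:145292222-145292471 (+) for Col24a1.
Col3a1: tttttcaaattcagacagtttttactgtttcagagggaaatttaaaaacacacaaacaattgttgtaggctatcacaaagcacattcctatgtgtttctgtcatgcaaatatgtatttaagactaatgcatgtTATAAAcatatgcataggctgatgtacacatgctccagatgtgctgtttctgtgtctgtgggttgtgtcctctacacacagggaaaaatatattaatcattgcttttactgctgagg
Col8a1: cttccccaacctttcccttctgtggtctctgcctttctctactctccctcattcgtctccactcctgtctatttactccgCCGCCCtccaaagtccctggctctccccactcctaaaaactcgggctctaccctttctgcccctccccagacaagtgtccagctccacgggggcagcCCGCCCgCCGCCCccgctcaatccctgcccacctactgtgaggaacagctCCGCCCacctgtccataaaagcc
Col23a1: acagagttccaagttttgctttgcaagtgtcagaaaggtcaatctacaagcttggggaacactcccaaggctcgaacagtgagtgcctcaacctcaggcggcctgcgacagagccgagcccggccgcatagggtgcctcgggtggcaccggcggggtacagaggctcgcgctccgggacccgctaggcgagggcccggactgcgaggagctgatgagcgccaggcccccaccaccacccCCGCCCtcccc
Col7a1: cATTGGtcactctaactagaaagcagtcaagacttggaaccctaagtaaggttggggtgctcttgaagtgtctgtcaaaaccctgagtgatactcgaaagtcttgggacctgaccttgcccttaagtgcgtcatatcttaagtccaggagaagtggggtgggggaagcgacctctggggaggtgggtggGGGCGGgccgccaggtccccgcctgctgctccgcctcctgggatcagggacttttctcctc
Col11a1: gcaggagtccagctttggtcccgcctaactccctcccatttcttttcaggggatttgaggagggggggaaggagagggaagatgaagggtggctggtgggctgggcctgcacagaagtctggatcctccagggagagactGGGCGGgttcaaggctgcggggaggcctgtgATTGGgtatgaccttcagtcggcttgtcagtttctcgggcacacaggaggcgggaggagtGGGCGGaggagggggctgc
Col24a1: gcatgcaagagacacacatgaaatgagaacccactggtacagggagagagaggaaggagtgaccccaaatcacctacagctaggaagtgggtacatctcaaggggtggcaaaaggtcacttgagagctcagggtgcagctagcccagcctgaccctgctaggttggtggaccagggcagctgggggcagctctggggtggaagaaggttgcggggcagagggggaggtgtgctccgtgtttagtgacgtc

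The GC box occurred 4 times before Col8a1, 2 times before Col11a1, 1 time before Col23a1 and Col7a1, and not in the windows of Col3a1 and Col24a1. The CCAAT box occurred 1 time before Col7a1 and Col11a1, and the TATA box 1 time before Col3a1. Over the 35 collagen windows, 60.0% held a GC box, 34.3% a CCAAT box and 14.3% a TATA box, beside 32.7%, 33.8% and 12.4% of the 32851 windows of that length in the table. The collagen set holds 1 window per gene, the one nearest the annotated start. The 32851 are all windows without such a choice, so the 2 sets are not alike. Of the 10 windows of members at least 2-fold higher in DAT, 7 held a GC box, 3 a CCAAT box and 2 a TATA box. No motif holds another, and a match describes these letters only.

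Among fibrillar chains, the genes of the common fibrils were higher in DAT and those of several minor types lower. Type I collagen, the main fibril of skin, bone and meninges, is built from 2 chains encoded by Col1a1 (ENSMUSG00000001506.10, chromosome 11 from 94936224 to 94953042, GRCm38) and 1 encoded by Col1a2 (ENSMUSG00000029661.16, chromosome 6 from 4504814 to 4541544). Col1a2 stood at 45.6, 47.3 and 47.0 CPM in CTR, 22.2, 22.7 and 22.9 in CX3 and 106.8, 103.5 and 109.1 in DAT. The 3 groups did not overlap, and CX3 and DAT lay on opposite sides of CTR. Its log2 fold change was -1.05 (SE 0.0471, adjusted p = 1.14e-09) in CX3 vs CTR, 1.19 (SE 0.0446, adjusted p = 4.48e-11) in DAT vs CTR and -2.24 (SE 0.0469, adjusted p = 2.08e-13) in CX3 vs DAT.

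Col1a1 had 17.8, 16.9 and 18.0 CPM in CTR, 13.97, 14.96 and 13.96 in CX3 and 52.8, 50.8 and 54.2 in DAT. It was lower in CX3 by a smaller step than Col1a2, at -0.30 (SE 0.0587, adjusted p = 0.00162), and higher in DAT by a larger one, at 1.58 (SE 0.0550, adjusted p = 2.44e-11). The ratio of Col1a2 to Col1a1 was 2.65 ± 0.130 in CTR, 1.58 ± 0.0643 in CX3 and 2.03 ± 0.0112 in DAT (CPM over CPM, mean ± SD, n = 3). No library of 1 group overlapped with another group in this ratio. With 3 libraries against 3, an exact permutation test of 1 ratio cannot go below p = 0.10, and none is given.

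Col3a1, whose chain forms the type III fibrils that run with type I in vessel walls, had 13.0, 13.7 and 12.5 CPM in CTR. It had 11.2, 11.5 and 10.3 in CX3 and 29.0, 32.7 and 34.0 in DAT. The DAT libraries were thus more than 2-fold above CTR (1.28, SE 0.0739, adjusted p = 3.45e-09). The decrease in CX3 was called (-0.25, SE 0.0786, adjusted p = 0.0274), but not without CTR A, CTR B or CX3 C (adjusted p = 0.0684 to 0.115). Nor was it called in reverse-strand counts, with scaling by library size only or when genes with at least 1 count were kept. Col5a1 encodes a type V chain, which sets the diameter of type I fibrils. Its CPM were 5.75, 6.84 and 5.77 in CTR, 7.04, 8.12 and 7.40 in CX3 and 10.9, 9.71 and 9.83 in DAT. All libraries of CX3 and DAT lay above those of CTR. It was higher in DAT (0.73, SE 0.0991, adjusted p = 1.99e-05), and its call in CX3 (0.29, adjusted p = 0.0393) was lost without CTR A, CTR C, CX3 B or CX3 C. The CX3 call of Col5a1 was also lost with DESeq2 (adjusted p = 0.0589) and in counts of either strand. Col5a2, its partner chain, was not called against CTR, with log2 fold changes of -0.28 (adjusted p = 0.0765, and 0.0370 without CTR B) in CX3 and 0.18 (adjusted p = 0.183) in DAT.

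Lower in DAT were Col24a1 and Col11a1. Col24a1 encodes a minor fibrillar chain of bone and brain. It had 4.27, 4.29 and 5.001 CPM in CTR, 4.67, 5.46 and 5.29 in CX3 and 1.23, 1.31 and 0.834 in DAT, a log2 fold change of -1.99 (SE 0.165, adjusted p = 1.44e-07) against CTR. Col11a1, a type XI chain of cartilage that is also transcribed in brain, had 22.7, 24.5 and 21.2 CPM in CTR, 24.3, 27.1 and 24.97 in CX3 and 9.79, 9.10 and 11.4 in DAT. Its log2 fold change in DAT was -1.18 (SE 0.0863, adjusted p = 4.04e-08), and in CX3 it was 0.16 (adjusted p = 0.134). Both genes were also higher in CX3 than in DAT, by 2.18 (adjusted p = 4.45e-08) and 1.33 (adjusted p = 9.37e-09) on the log2 scale. Col27a1, another minor fibrillar gene, moved by less, with 13.6, 13.7 and 12.8 CPM in CTR, 14.9, 15.3 and 16.7 in CX3 and 9.95, 10.96 and 10.4 in DAT (-0.37, adjusted p = 0.000665). Its increase in CX3 (0.22, adjusted p = 0.0231) was lost without CTR A, CTR B, CTR C or CX3 C, and in forward-strand counts.

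In all, 6 of 11 fibrillar genes (54.5%) were higher and 4 (36.4%) lower in DAT vs CTR, beside 32.0% and 27.9% of all genes. The median log2 fold change was 0.27. In CX3 vs CTR, 3 (27.3%) were higher, 3 (27.3%) lower and 5 not called, beside 14.0% and 16.5% of all genes. The median there was -0.01. The remaining members were Col2a1, Col5a3 and Col11a2, whose log2 fold changes in DAT lay between -0.40 and 0.53. Summed per kilobase of exon, which allows genes of different length to be added, fibrillar RNA stood at 18.5 ± 0.245 in CTR, 16.6 ± 0.651 in CX3 and 30.4 ± 0.535 in DAT (CPM per kilobase, mean ± SD, n = 3).

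**Figure D2:**
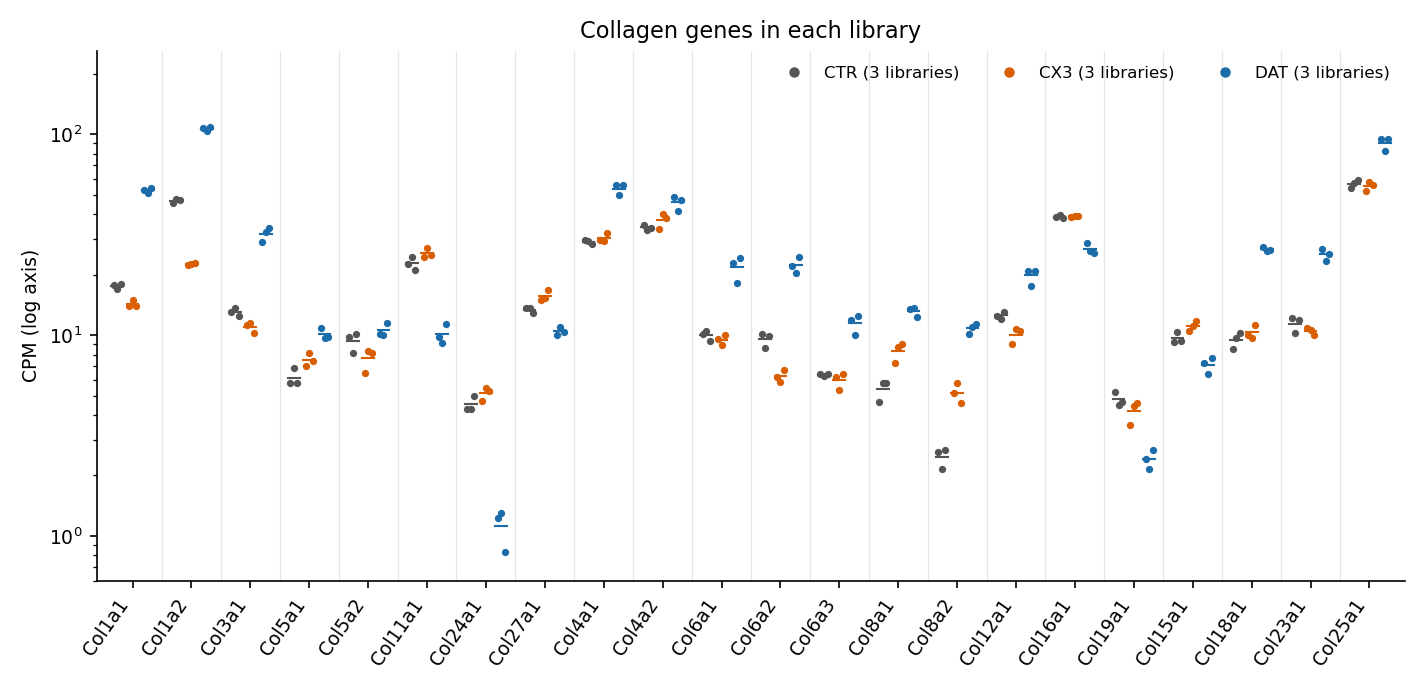
CPM (log axis) of 22 collagen genes in each of the 9 libraries, with 3 points per group in the order A, B, C and a line at the group mean. Col1a2 shows 3 separate groups with CX3 lowest at 22.2 to 22.9 and DAT highest at 103.5 to 109.1, and Col24a1 shows DAT lowest at 0.834 to 1.31.

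The type IV chains are encoded in 3 pairs of genes that start next to each other and are transcribed in opposite directions. Col4a1 (ENSMUSG00000031502.11, chromosome 8 from 11198423 to 11312826, minus strand) and Col4a2 (ENSMUSG00000031503.13, chromosome 8 from 11312805 to 11449287, plus strand) build the network of all vascular basement membranes. Their annotated first exons share 22 bases, at chr8:11312805-11312826. Between the starts of Col4a4 (minus strand) and Col4a3 (plus strand) lie 71 bases, at chr1:82586850-82586920. Both stretches are shown on the plus strand, since they are what these pairs have in common, with the GC box in capitals. Col4a6 and Col4a5 start 1308 bases apart on the X chromosome.
Col4a1 and Col4a2: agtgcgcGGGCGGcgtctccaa
Col4a4 and Col4a3: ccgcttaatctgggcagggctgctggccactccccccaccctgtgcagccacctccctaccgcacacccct

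Col4a1 had 29.8, 29.4 and 28.4 CPM in CTR, 29.9, 29.3 and 32.1 in CX3 and 55.5, 49.6 and 55.6 in DAT. Col4a2 had 35.5, 33.5 and 34.2 CPM in CTR, 33.9, 39.9 and 38.2 in CX3 and 48.8, 41.6 and 47.2 in DAT. In DAT both were above CTR, Col4a1 by 0.88 (SE 0.0586, adjusted p = 1.47e-08) and Col4a2 by 0.42 (SE 0.0708, adjusted p = 0.000143) on the log2 scale. In CX3 neither was called, at 0.06 (adjusted p = 0.495) and 0.12 (adjusted p = 0.228). The ratio of Col4a1 to Col4a2 CPM was 0.850 ± 0.0246 in CTR, 0.818 ± 0.0760 in CX3 and 1.17 ± 0.0283 in DAT (mean ± SD, n = 3), so the partners of this pair moved unequally in DAT.

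Col4a5 and Col4a6 changed in the same direction as each other in each group. Col4a5 had 13.5, 12.3 and 12.03 CPM in CTR, 9.14, 9.85 and 10.5 in CX3 and 15.5, 14.3 and 17.1 in DAT. Col4a6 had 4.57, 3.76 and 4.83 CPM in CTR, 2.91, 3.18 and 3.20 in CX3 and 5.65, 4.93 and 7.42 in DAT. CX3 was lower than CTR, with a log2 fold change of -0.36 (adjusted p = 0.00489) for Col4a5 and -0.50 (adjusted p = 0.0238) for Col4a6, while DAT was higher, at 0.31 (adjusted p = 0.00443) and 0.46 (adjusted p = 0.0151). The calls of Col4a6 against CTR were lost when single libraries were left out, in CX3 without CTR A, CTR C, CX3 A or CX3 B and in DAT without CTR B or DAT C. They were also lost in counts of either strand, and in DAT with scaling by library size only. The DAT call of Col4a5 was lost with library size only (adjusted p = 0.0891) and in reverse-strand counts (adjusted p = 0.109). CX3 and DAT differed by -0.67 (adjusted p = 7.91e-06) for Col4a5 and -0.95 (adjusted p = 7.98e-05) for Col4a6.

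Col4a3 and Col4a4, whose chains are best known from the filter of the kidney, were low, with 14 to 74 counts per library for Col4a3 and 23 to 90 for Col4a4. Col4a3 had 1.18, 0.879 and 1 CPM in CTR, 1.77, 1.502 and 1.85 in CX3 and 2.03, 0.704 and 0.702 in DAT, and 5.65% of its exon bases are shared with a gene on the other strand. Col4a4 had 1.41, 1.13 and 1.30 CPM in CTR, 2.34, 1.94 and 1.98 in CX3 and 2.14, 1.16 and 1.76 in DAT. In CX3 all libraries lay above CTR for both genes. Col4a4 was called (0.71, adjusted p = 0.0165), but not without CTR B or CX3 A, nor in counts of either strand, while Col4a3 was not (0.75, adjusted p = 0.0860). Col4a3 was called at about the same fold when only CX3 and CTR were fitted (adjusted p = 0.00534) and when genes with at least 1 count were kept (adjusted p = 0.00443). DAT A stood apart for Col4a3, and without it Col4a3 was higher in CX3 than in DAT by 1.295 (adjusted p = 0.000783). In all, 4 of 6 type IV genes (66.7%) were higher and 0 lower in DAT vs CTR (median 0.44). In CX3 vs CTR, 1 (16.7%) was higher and 2 (33.3%) lower (median 0.09). The shares of all genes were 32.0% and 27.9% in DAT and 14.0% and 16.5% in CX3.

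Type VI filaments are built from 1 chain each of Col6a1, Col6a2 and another such as Col6a3, and they link cells to the matrix. Col6a1 had 10.1, 10.4 and 9.30 CPM in CTR, 9.503, 8.92 and 9.97 in CX3 and 22.8, 18.2 and 24.2 in DAT. Col6a2 had 10.2, 8.60 and 9.90 CPM in CTR, 6.18, 5.83 and 6.69 in CX3 and 22.2, 20.3 and 24.4 in DAT. Col6a3 had 6.37, 6.24 and 6.40 CPM in CTR, 6.18, 5.34 and 6.43 in CX3 and 11.9, 10.1 and 12.5 in DAT. All 3 were higher in DAT than in CTR, by 1.13 (adjusted p = 1.90e-07), 1.23 (adjusted p = 3.04e-08) and 0.86 (adjusted p = 4.24e-06). In CX3 the call was made for Col6a2 alone, at -0.61 (SE 0.0967, adjusted p = 0.000315), beside -0.07 (adjusted p = 0.629) for Col6a1 and -0.08 (adjusted p = 0.606) for Col6a3. The ratio of Col6a1 to Col6a2 CPM was 1.05 ± 0.145 in CTR, 1.52 ± 0.0254 in CX3 and 0.972 ± 0.0687 in DAT. Of the alternatives to Col6a3, Col6a6 was higher in DAT (1.40, adjusted p = 7.67e-06), from 1.05 to 1.26 CPM in CTR to 2.72 to 3.27, and was named after its values were seen. In DAT vs CTR, 4 of 6 type VI genes (66.7%) were higher and 1 (16.7%) lower (median 0.998), beside 32.0% and 27.9% of all genes. The lower type VI gene was Col6a4 (-0.97, adjusted p = 0.0255), a call lost without CTR A, CTR B or DAT A, and in forward-strand counts. Col6a4 and Col6a5 had at most 1.37 CPM in any library.

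**Figure D3:**
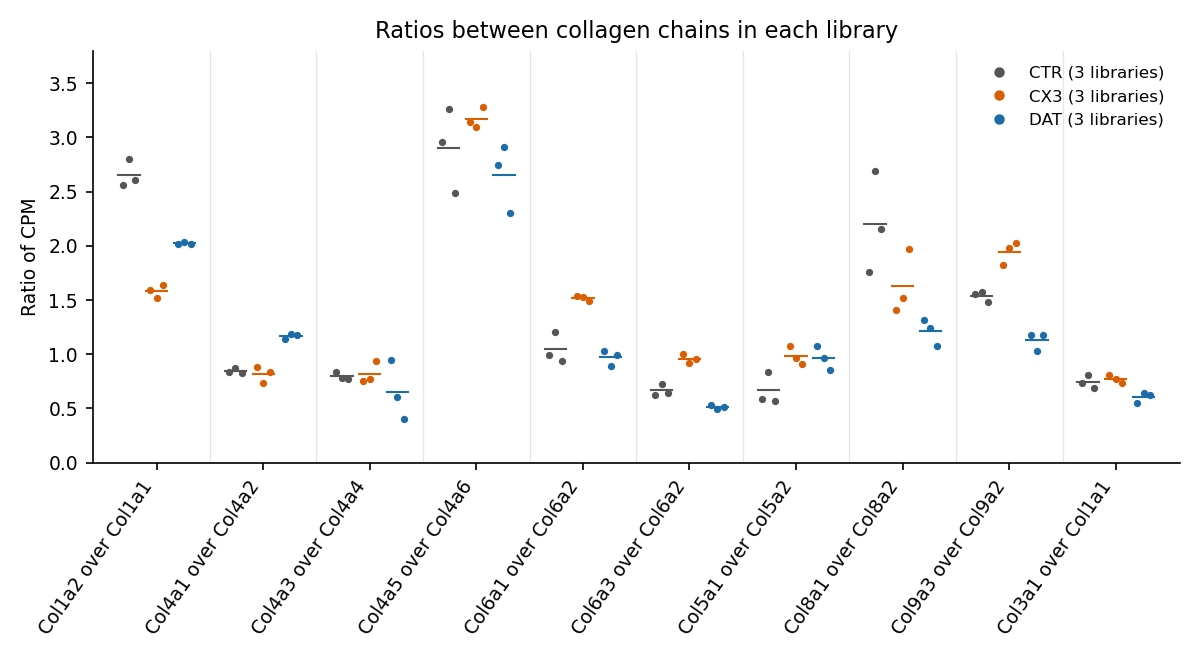
Ratio of the CPM of 2 collagen chains in each library, with 3 points per group in the order A, B, C and a line at the group mean. The ratio of Col1a2 to Col1a1 separates the 3 groups (2.65 in CTR, 1.58 in CX3, 2.03 in DAT), and Col4a1 over Col4a2 is highest in DAT at 1.17.

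Type VIII collagen forms a short-chain network made by vessel wall cells and in the eye, and both of its genes were higher in CX3 and in DAT than in CTR. Col8a1 had 4.63, 5.77 and 5.77 CPM in CTR, 7.30, 8.75 and 9.04 in CX3 and 13.4, 13.6 and 12.2 in DAT. Col8a2 had 2.63, 2.14 and 2.67 CPM in CTR, 5.17, 5.75 and 4.58 in CX3 and 10.2, 10.96 and 11.3 in DAT. The groups did not overlap for either gene, with CX3 between CTR and DAT. Against CTR, Col8a1 was higher by 0.63 (SE 0.110, adjusted p = 0.000642) in CX3 and 1.28 (SE 0.109, adjusted p = 1.80e-07) in DAT, and Col8a2 by 1.06 (SE 0.126, adjusted p = 2.42e-05) and 2.13 (SE 0.121, adjusted p = 2.86e-09). CX3 and DAT differed by -0.65 (adjusted p = 7.37e-05) for Col8a1 and -1.06 (adjusted p = 1.02e-06) for Col8a2. Col7a1, the anchoring fibril of skin, had 3.91, 4.78 and 2.73 CPM in CTR, 2.80, 3.52 and 3.52 in CX3 and 1.23, 1.16 and 1.49 in DAT (-1.57, SE 0.218, adjusted p = 2.51e-05).

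Fibril-associated collagens, which sit on the surface of fibrils, held the largest share of collagen RNA per kilobase in CTR, 30.6%, and 31.1% in CX3 and 23.9% in DAT. Col9a3 was the member with the highest level in CTR at 6.77 ± 0.452 CPM per kilobase (mean ± SD, n = 3), followed by Col16a1 at 5.76 ± 0.103, Col9a2 at 5.48 ± 0.252, Col4a2 at 5.19 ± 0.152, Col11a2 at 4.63 ± 0.171 and Col25a1 at 4.39 ± 0.207. Neighbours in this order that lay within the sum of their SDs were Col16a1 and Col9a2, Col9a2 and Col4a2, and Col11a2 and Col25a1. In DAT, Col9a2 led at 9.25 ± 0.724, with Col1a2 at 8.57 ± 0.228, Col9a3 at 8.38 ± 0.141 and Col1a1 at 8.01 ± 0.257, and Col16a1 stood at rank 11. Neighbours among these 4 lay within the sum of their SDs. In CX3 Col1a2 stood at rank 12 with 1.82 ± 0.0302. The length used joins the exons of all annotated transcripts of a gene, 3853 bases for Col9a3 and 12426 for Col1a2. The order and the shares by type therefore depend on the annotation, and lengths of the transcripts present were not measured.

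Col16a1, which is known from smooth muscle and fibroblasts, had 38.5, 39.7 and 38.4 CPM in CTR, 38.8, 39.2 and 39.1 in CX3 and 28.7, 26.4 and 25.6 in DAT. It was lower in DAT by -0.53 (SE 0.0536, adjusted p = 1.12e-06), and its log2 fold change in CX3 was 0.01 (SE 0.0508, adjusted p = 0.942). Col19a1, a gene of neurons with a role in synapse formation, had 5.19, 4.48 and 4.67 CPM in CTR, 3.58, 4.42 and 4.58 in CX3 and 2.41, 2.16 and 2.68 in DAT (-0.98, SE 0.140, adjusted p = 3.39e-05). Col12a1, found on type I fibrils, went with Col1a1, at 12.5, 12.1 and 13.0 CPM in CTR, 9.04, 10.7 and 10.4 in CX3 and 20.9, 17.6 and 20.9 in DAT. Its log2 fold change was -0.32 (adjusted p = 0.0128, lost without CTR C or CX3 A and in forward-strand counts) in CX3 and 0.67 (adjusted p = 8.27e-06) in DAT. Col14a1, also found on type I fibrils and named after its values were seen, was 1.22 higher in DAT (adjusted p = 4.87e-05). Of the 9 genes of the group, 4 (44.4%) were higher and 2 (22.2%) lower in DAT vs CTR. In CX3 vs CTR, 2 (22.2%) were higher and 1 (11.1%) lower. These shares were not far from those of all genes, 32.0% and 27.9% in DAT and 14.0% and 16.5% in CX3.

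Transmembrane collagens are shed from the surface of cells, and all 4 genes were higher in DAT than in CTR, beside 32.0% of all genes. Col25a1, which encodes a neuronal collagen first known from amyloid plaques, had 53.9, 57.2 and 59.2 CPM in CTR, 52.3, 57.7 and 56.0 in CX3 and 94.9, 82.6 and 94.4 in DAT (0.68, SE 0.0622, adjusted p = 4.03e-07). Col23a1 had 12.1, 10.3 and 11.8 CPM in CTR, 10.8, 10.6 and 10.03 in CX3 and 26.8, 23.5 and 25.3 in DAT (1.15, SE 0.0765, adjusted p = 1.39e-08). Neither was called in CX3, at -0.04 (adjusted p = 0.690) and -0.12 (adjusted p = 0.303). Col17a1, a gene of epithelial attachment plaques, was low throughout but higher in both groups, with 0.263, 0.165 and 0.233 CPM in CTR, 0.883, 0.809 and 0.755 in CX3 and 0.987, 1.06 and 1.05 in DAT. Its log2 fold change was 1.89 (SE 0.278, adjusted p = 0.000164) in CX3 and 2.22 (SE 0.280, adjusted p = 9.97e-06) in DAT, and the CTR values rest on 8, 6 and 7 counts.

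The 2 multiplexins are basement membrane collagens that carry sugar chains, and they went in opposite directions in DAT. Col18a1, the source of endostatin, had 8.54, 9.70 and 10.2 CPM in CTR, 9.996, 9.65 and 11.3 in CX3 and 27.4, 26.3 and 26.5 in DAT (1.49, SE 0.0781, adjusted p = 1.25e-09). Col15a1 had 9.26, 10.3 and 9.34 CPM in CTR, 10.4, 11.03 and 11.7 in CX3 and 7.27, 6.39 and 7.68 in DAT (-0.44, SE 0.0917, adjusted p = 0.000942). In CX3 neither was called, at 0.12 (adjusted p = 0.304) and 0.19 (adjusted p = 0.0950). Of the 2 members outside these types, Col26a1, named after its values were seen, was called in both groups, higher in CX3 (0.43, adjusted p = 0.00315) and lower in DAT (-0.25, adjusted p = 0.0475), where the call was lost without CTR A, CTR C, DAT B or DAT C. That DAT call was also lost with DESeq2, in reverse-strand counts and when genes with at least 1 count were kept. Col28a1 was not called against CTR.

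**Figure D4:**
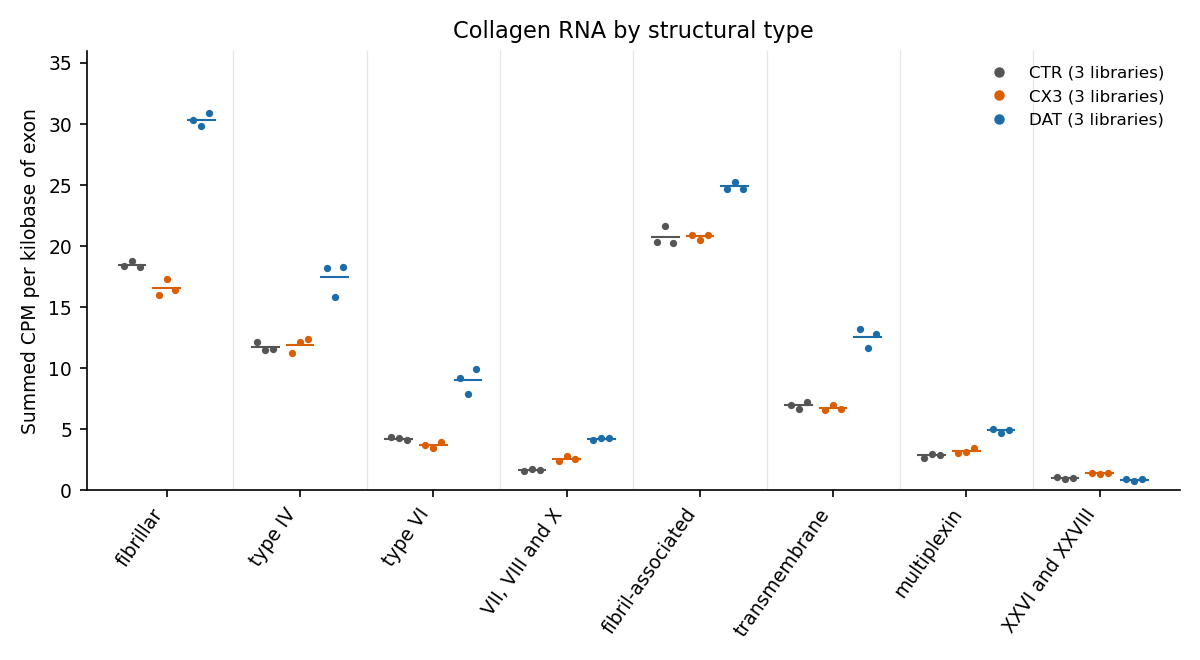
CPM per kilobase of exon summed over the genes of each structural type in each library, with 3 points per group in the order A, B, C and a line at the group mean. DAT is highest for every type but types XXVI and XXVIII, and fibrillar RNA stands at 18.5 in CTR, 16.6 in CX3 and 30.4 in DAT.

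Of 21 enzymes and helpers that fold, modify and cross-link collagen, 13 (61.9%) were lower in CX3 and 0 higher, beside 16.5% and 14.0% of all genes. In DAT, 6 (28.6%) were higher and 6 (28.6%) lower, close to the shares of all genes, 32.0% and 27.9%. The medians were -0.36 and 0.02. P4ha1, the catalytic subunit that hydroxylates proline, fell in both groups, from 108.3 to 114.0 CPM in CTR to 52.3 to 55.3 in CX3 (-1.04, adjusted p = 1.70e-09) and 55.8 to 61.0 in DAT (-0.95, adjusted p = 1.20e-09). Serpinh1, the collagen chaperone of the endoplasmic reticulum, had 40.7 to 43.4 CPM in CTR, 26.3 to 29.1 in CX3 and 39.1 to 48.6 in DAT, with a decrease in CX3 (-0.62, adjusted p = 2.06e-05) and no call in DAT (0.06, adjusted p = 0.480). Lox, which starts cross-linking, was lower in CX3 (-0.47, adjusted p = 0.0187) and higher in DAT (0.42, adjusted p = 0.0131), and its relative Loxl1 was -0.42 in CX3 (adjusted p = 0.0232) and 1.03 in DAT (adjusted p = 3.60e-06), the same directions as Col1a1.

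Genes of procollagen processing and fibril assembly were higher in DAT in 9 of 15 cases (60%) and lower in 0, with a median of 0.39. In CX3, 2 (13.3%) were higher and 6 (40%) lower. The shares of all genes were 32.0% and 27.9% in DAT and 14.0% and 16.5% in CX3. This list also holds Dcn, Lum and Fmod, which stand in the fibroblast list too. The largest changes in DAT were those of Tnxb (1.60, adjusted p = 4.87e-08), Adamts2, which cuts off the N-propeptide of types I and III (1.57, adjusted p = 7.45e-11), and Fn1, fibronectin (1.49, adjusted p = 1.67e-08). Fn1 had 145.2 and 147.1 CPM in DAT A and DAT C but 107.8 in DAT B, against 45.0 to 49.97 in CTR and 28.2 to 33.0 in CX3. Sparc, a collagen-binding glycoprotein, followed with smaller steps (-0.28, adjusted p = 3.73e-05 in CX3 and 0.30, adjusted p = 3.41e-06 in DAT). In CX3, Adamts14 was the member higher by at least 2-fold (1.43, adjusted p = 0.00482).

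Among laminins and other partners of type IV collagen, 11 of 12 genes (91.7%) were higher in DAT and 1 (8.33%) lower, with a median of 0.81. In CX3, 3 (25%) were higher and 5 (41.7%) lower. The shares of all genes were 32.0% and 27.9% in DAT and 14.0% and 16.5% in CX3. Hspg2, which encodes perlecan, had the largest change of the list in DAT, from 7.23 to 7.92 CPM in CTR to 11.7 to 12.5 in CX3 (0.65, adjusted p = 0.000444) and 26.2 to 35.3 in DAT (2.07, adjusted p = 7.14e-10). Nid2 (1.39), Lamb2 (1.11) and Lama1 (1.10) followed in DAT, whereas Lamb2 was lower in CX3 (-0.62, adjusted p = 1.25e-06). The largest increase of the list in CX3 was that of the laminin gene Lama5 (0.89, adjusted p = 1.87e-05), which was 1.04 higher in DAT and was named after its values were seen.

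Of 11 tested genes of collagen breakdown and its inhibitors, 6 (54.5%) were higher and 4 (36.4%) lower in DAT, and 3 (27.3%) higher and 5 (45.5%) lower in CX3. The shares over all genes were 32.0% and 27.9% in DAT and 14.0% and 16.5% in CX3. Mrc2, an uptake receptor for collagen, was 1.57 higher in DAT (adjusted p = 1.52e-10) and Mmp9, a gelatinase, 1.14 higher (adjusted p = 0.000237). Timp1, an inhibitor of metalloproteinases, was lower in CX3 (-1.304, adjusted p = 4.84e-05) and DAT (-1.96, adjusted p = 7.24e-07), and Mmp12, the macrophage elastase, was -2.49 in DAT (adjusted p = 2.34e-05). Mmp2 was 0.31 higher in DAT (adjusted p = 0.00585), and its log2 fold change in CX3 was -0.12 (adjusted p = 0.303). Fap, a fibroblast protease, was 1.39 higher in CX3 (adjusted p = 6.60e-06). Mmp3, Mmp8 and Mmp13 did not pass the filter on low counts. Of 9 tested collagen receptors, 4 (44.4%) were higher and 3 (33.3%) lower in DAT, not far from the shares of all genes, with Lair1, an inhibitory receptor of leukocytes, at -1.19 (adjusted p = 3.28e-10), and 1 (11.1%) was higher and 3 (33.3%) lower in CX3. Of 13 genes of the TGF-beta pathway, which is known to induce collagen genes, 7 (53.8%) were higher and 3 (23.1%) lower in DAT, and 1 (7.69%) higher and 4 (30.8%) lower in CX3. Tgfb1 itself was higher in CX3 (0.35, adjusted p = 0.00187) and not called in DAT (0.14, adjusted p = 0.113), and Ccn2, a target of the pathway, was lower in CX3 (-1.06, adjusted p = 1.68e-05).

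The summed fibroblast, mural and oligodendrocyte precursor lists stood lower in CX3 and higher in DAT than in CTR, like the summed collagen level. With scaling by library size only, summed collagen was close in CX3 and CTR (510.4 and 512.4 CPM). The endothelial sum was higher in both groups, and each of these cell lists held genes called in both directions in DAT. In bulk tissue a change in the number of such cells cannot be told apart from a change of RNA per cell. The shares of all genes called higher and lower were 32.0% and 27.9% in DAT and 14.0% and 16.5% in CX3. Of 14 markers of meningeal and perivascular fibroblasts, 10 (71.4%) were higher and 1 (7.14%) lower in DAT. In CX3, 0 were higher and 7 (50%) lower, and the medians were 0.96 in DAT and -0.20 in CX3 on the log2 scale. All 14 markers were above the floor. Their summed level was 360.4 to 363.4 CPM in CTR, 298.2 to 311.0 in CX3 and 523.2 to 550.0 in DAT. Foxc2 (1.37), Foxc1 (1.35), Igf2 (1.31) and Lama1 (1.10) had the largest changes in DAT, whereas the fibroblast proteoglycans Dcn and Lum were not called, at -0.06 (adjusted p = 0.407) and 0.22 (adjusted p = 0.0887) in DAT. Of 11 endothelial markers, 8 (72.7%) were higher and 3 (27.3%) lower in DAT, and 7 (63.6%) were higher and 2 (18.2%) lower in CX3. Cldn5, a tight junction gene, was at 1.36 in DAT and 1.2 in CX3, whereas Ly6c1 was at -1.08 and -0.20, and the sum was 447.1 to 449.3, 498.3 to 509.4 and 573.0 to 575.6 CPM in CTR, CX3 and DAT, so that CX3 lay above CTR here and below it in collagen. Of 10 tested mural markers, 6 (60%) were higher and 2 (20%) lower in DAT, and 4 (40%) were higher and 2 (20%) lower in CX3. Pdgfrb rose by 1.35 in DAT and 0.30 in CX3, Rgs5, among the most abundant of the list, was at -0.79 in DAT and 0.43 in CX3, and Vtn was at 0.20 in DAT and -1.04 in CX3. Their sum was 417.9 to 427.0, 385.6 to 396.5 and 446.2 to 453.5 CPM in CTR, CX3 and DAT, and Tagln, with 1 to 11 counts, did not pass the filter.

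Lists of other cells differed between the groups as well. Of all genes, 14.0% were called higher and 16.5% lower in CX3, and 32.0% and 27.9% in DAT. The 10 choroid plexus markers summed to 769.2 to 782.0 CPM in CTR, 2622 to 2687 in CX3 and 1837 to 1983 in DAT, with 9 of 10 higher in either group. Ttr had the largest change of the list, at 19.4 to 20.8, 1411 to 1520 and 794.1 to 965.7 CPM. Most of the CTR sum was Enpp2, named after its values were seen, at 705.3 to 717.0 CPM in CTR, 1067 to 1109 in CX3 and 901.1 to 933.2 in DAT. Of 8 pituitary markers, 5 were tested and their sum was 61.7 to 64.5, 6.21 to 6.52 and 18.5 to 24.1 CPM, with Gh at 33.6 to 35.8 CPM in CTR and at most 0.312 elsewhere. Prl and Fshb had 0 counts in the DAT libraries, and Fshb also in CX3. The 6 ependymal markers were all higher in DAT and summed to 22.2 to 25.99, 25.3 to 27.0 and 32.0 to 37.9 CPM, with Tmem212 at 3 to 16 counts. Astrocyte markers summed to 7712 to 7728, 4668 to 4913 and 5114 to 5345 CPM (10 of 10 lower in CX3, 6 in DAT), microglia and macrophage markers to 750.4 to 758.7, 502.0 to 508.6 and 493.0 to 502.4, and T cell markers to 59.0 to 60.1, 47.9 to 52.5 and 15.2 to 17.4. The 6 markers of oligodendrocyte precursors summed to 312.0 to 315.4, 270.4 to 279.0 and 386.3 to 413.4 CPM, and the 8 dopaminergic markers to 861.6 to 870.5, 1046 to 1066 and 676.1 to 690.0, where Th was 0.30 higher in CX3 (adjusted p = 0.000117) and 0.25 lower in DAT on the log2 scale. Cx3cr1, named after its values were seen, stood at 101.3 to 102.9 CPM in CTR, 43.6 to 45.3 in CX3 and 78.5 to 86.2 in DAT, although CTR and CX3 are described as the same Cre line. Reads outside genes were 9.82 to 10% of uniquely mapped reads in CTR, 8.36 to 9.47% in CX3 and 5.45 to 5.58% in DAT. The part of these differences in the collagen results was not tested.

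**Figure D5:**
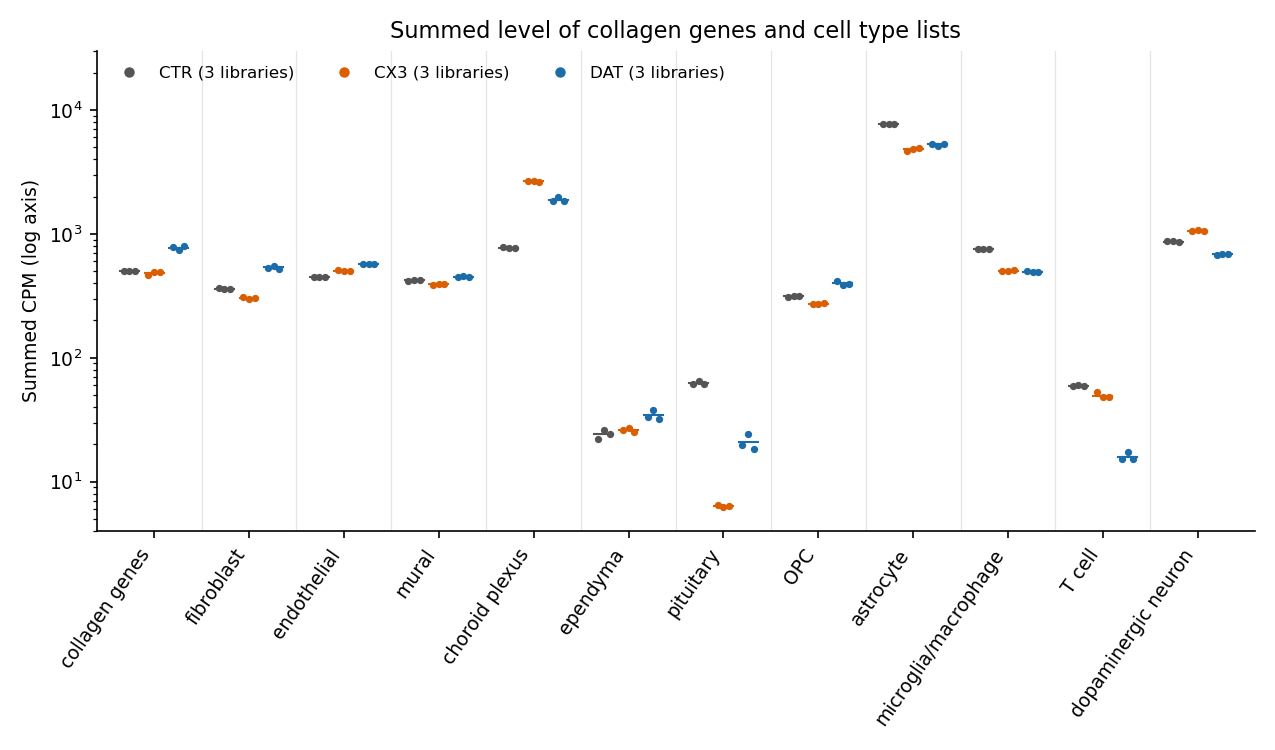
Summed CPM (log axis) of the collagen genes and of the marker lists of 11 cell types in each library, with 3 points per group in the order A, B, C and a line at the group mean. Collagen and fibroblast sums are both highest in DAT (734.0 to 791.5 and 523.2 to 550.0 CPM). So are the endothelial, mural, ependymal and oligodendrocyte precursor sums, while the choroid plexus sum is highest in CX3 (2622 to 2687 CPM).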

How the data were processed

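Unnormalized counts for every annotated gene were deposited, 1 file per library, in the layout of STAR's gene counts, while the processing notes name Trimmomatic, STAR, featureCounts and DESeq2 and the build mm10. Their versions are not given in the sources used here. The identifiers are those of GENCODE M21 (GRCm38), whose symbols, coordinates and exon lengths were used. A stranded kit is described, but the reverse strand held 49.8 to 49.9% of strand-specific counts in each library, and the unstranded counts were therefore taken as the main measure. Genes that overlap on opposite strands cannot be told apart. Rows that name no gene (unmapped, multimapping, ambiguous, outside genes) held 30.5 to 35.9% of each file's total and were left out.

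Counts were filtered with filterByExpr, scaled by TMM and tested over all 9 libraries with edgeR 4.0.16 (quasi-likelihood F test, Benjamini-Hochberg adjustment over all 20892 genes, no covariate) in R 4.3.3. The SE is the absolute log2 fold change divided by the square root of F. CPM per kilobase divides by the exon bases of a gene, joined over all its annotated transcripts. Alternatives were DESeq2 1.42.0, other scalings and filters, counts of 1 strand, only the groups compared, a replicate block and leaving out each library in turn. edgeR and DESeq2 were tested on counts simulated for CX3 vs CTR (20613 genes), where edgeR recovered 98% and DESeq2 92% of 50 genes changed 2-fold, and 96% and 84% of 50 changed 1.5-fold. In simulated CX3 vs DAT the shares were 96% and 84% at 2-fold and 94% and 86% at 1.5-fold. The simulation gave every group the same spread, and genes with low counts were not among those changed. Real libraries of a group differed by 1.46 to 16.5 times sampling over all genes. The shares therefore do not measure recovery in the noisier groups or for genes with low counts. DESeq2 missed the first pass marks for recovery, under 2 random seeds, and was then judged by the error of its folds and its false calls. Other steps used Python 3.11.15 with pandas 2.3.3, numpy 2.4.6 and matplotlib 3.10.9. Samples were grouped by their labels.

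The members and lists were chosen with earlier results of these data known, and Ctgf was respelled Ccn2 to match the annotation. Genes named were the main structural and brain collagens, the type IV pairs, the 6 members with the largest called change of at least 2-fold per comparison, and from each other list up to 4 such genes, plus 13 genes given whatever their values (among them Serpinh1, Lox, Fn1 and Th). A gene that the rule would name is not reported here. Promoter windows came from RefSeq (GRCm38.p6). The single-cell libraries of the study were not analysed here, and the vector's transcripts were not examined.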

Additional observations from a re-analysis of the deposited data

Results flagged for a closer look

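In 10 collagen genes, CX3 and DAT were called on opposite sides of the shared CTR libraries, and the difference between CX3 and DAT was itself called (edgeR's quasi-likelihood test, adjusted over all genes tested). In 7 of them CX3 was lower and DAT higher than CTR, and the log2 fold change of CX3 vs DAT was -2.24 for Col1a2, -1.88 for Col1a1, -1.84 for Col6a2, -1.53 for Col3a1, -0.99 for Col12a1, -0.95 for Col4a6 and -0.67 for Col4a5. In the other 3 CX3 was higher and DAT lower, at 0.96 for Col5a3, 0.69 for Col26a1 and 0.59 for Col27a1. These are 16.3% and 6.98% of the 43 members, beside 5.61% and 2.06% of all 20892 genes with the same calls. In all 10, each CX3 library lay on the same side of each DAT library. The genes were chosen because this difference was called, so that separation adds no support. Both calls against CTR held under every alternative run for Col1a1, Col1a2 and Col6a2, and for the other 7 at least 1 of them was lost under 1 or more alternatives.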

How the results depend on the processing

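Of 1927 recomputed log2 fold changes of collagen genes, 1807 kept their side of the threshold, 100 lost and 19 gained a call, and 1 called change reversed. This was Col9a3 in CX3 vs DAT, at 0.044 (adjusted p = 0.509) with scaling by library size only. A change of sign where neither value was called was not counted as a reversal, and such values stand among the 1807. The 12 members higher and 3 lower by at least 2-fold in DAT vs CTR, the 2 and 1 in CX3 vs CTR and the 3 and 9 in CX3 vs DAT were called under all alternatives. At that threshold, all genes counted 278 higher and 472 lower in CX3 vs CTR, 810 and 2511 in DAT vs CTR, and 2300 and 912 in CX3 vs DAT. Collagen genes higher in CX3 vs CTR numbered 6 in reverse-strand and 5 in forward-strand counts, and 6 to 9 with 1 library left out. Library size only moved the median of all genes to -0.15 in DAT vs CTR and 0.20 in CX3 vs DAT and called 8916 genes higher in CX3 vs DAT. The summed collagen CPM in CTR, CX3 and DAT was then 512.4, 510.4 and 711.4, so that CX3 and CTR came close to each other, and it was 465.6, 453.8 and 679.1 in reverse-strand and 474.9, 456.7 and 685.9 in forward-strand counts. The cause of these shifts was not tested. With the replicate letter as a replicate block, 8 collagen genes were higher and 7 lower in CX3 vs CTR, 25 and 10 in DAT vs CTR, and 10 and 24 in CX3 vs DAT. Libraries of different groups with the same letter did not deviate together (correlations of deviations -0.244 to 0.069), so the letters were not taken as pairs. The depth of 1 library sets the smallest countable level, 0.0779 to 0.151 CPM.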
